A study of Mus musculus with 3 samples.

Results

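The melanocyte pigment genes described here were Tyr, Tyrp1, Dct, Pmel, Mlana, Slc45a2, Mitf, Sox10, Kit and Ednrb, measured in macrophages sorted from mouse skin. They are 10 of the 19752 genes named on the array, and 14 of the 55681 probes report them. A probe was assigned to a gene through the RefSeq transcript it was designed on. The 10 genes were chosen by name from earlier results of the same arrays, in which pigment genes stood higher on the later arrays, so that all values below are a description and carry no test.

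The study sorted CD11b+ Gr1- F480+ cells (F480 being the macrophage protein encoded by Adgre1), labelled as skin resident macrophages, from the whole skin of female CD1 mice in the resting phase of the hair cycle (telogen). Early telogen (Te) was sampled on postnatal day 42, mid telogen (Tm) on day 55 and late telogen (Tl) on day 69, as given in the sample records, with no treatment and no engineered allele in any group. RNA of 3 littermates was pooled per stage, amplified and hybridised in 1 colour (Cy3) to 1 array, so that each stage had 1 value and no spread between mice. The study asked how these macrophages differ between stages before hair follicles re-enter growth. CD1 is an albino outbred stock, so that its melanocytes carry the pigment machinery without making melanin. The authors' table of log2 values gives the Tm and Tl arrays the other way round from the scanner records, so both later arrays are given throughout, by their scanner records.

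Melanocytes make melanin in melanosomes, organelles related to lysosomes, and pass them to keratinocytes. Mitf, a transcription factor switched on by Sox10 and Pax3, drives the enzymes Tyr, Tyrp1 and Dct and the structural proteins Pmel and Mlana. Kit and Ednrb are the receptors for stem cell factor (Kitl) and endothelin 3 (Edn3), on which melanoblasts depend. In telogen skin the follicle holds melanocyte stem cells in the bulge and hair germ, and Dct is among the genes by which they are recognised. Several of the 10 genes are also used outside the lineage, with Mitf in macrophages, osteoclasts and mast cells, Kit in mast cells, Sox10 in Schwann cells and Ednrb in endothelial cells.

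Mitf binds the hexamer CATGTG in promoters of pigment enzymes. The 250 bases before an annotated transcript start of each of the 3 enzyme genes are shown because this hexamer is present in each. They were taken from RefSeq on GRCm38.p6 and are written 5′ to 3′ on the strand of the gene, with each CATGTG or its reverse complement CACATG in capitals. The windows are chr7:87493513-87493762 on the minus strand for Tyr, chr4:80833963-80834212 on the plus strand for Tyrp1, and chr14:118052247-118052496 on the minus strand for Dct. The Tyrp1 window precedes a start inside the gene, whose outermost annotated start is at 80834123, upstream of the hexamer.
Tyr: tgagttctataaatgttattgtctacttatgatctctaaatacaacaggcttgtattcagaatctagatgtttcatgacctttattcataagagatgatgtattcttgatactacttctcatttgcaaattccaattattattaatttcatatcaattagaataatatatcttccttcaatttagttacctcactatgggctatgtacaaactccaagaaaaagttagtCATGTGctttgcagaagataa
Tyrp1: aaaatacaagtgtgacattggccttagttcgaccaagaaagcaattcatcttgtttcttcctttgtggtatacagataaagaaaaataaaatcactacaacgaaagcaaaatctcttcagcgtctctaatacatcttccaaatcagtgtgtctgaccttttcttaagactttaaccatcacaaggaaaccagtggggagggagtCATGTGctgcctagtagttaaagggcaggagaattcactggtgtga
Dct: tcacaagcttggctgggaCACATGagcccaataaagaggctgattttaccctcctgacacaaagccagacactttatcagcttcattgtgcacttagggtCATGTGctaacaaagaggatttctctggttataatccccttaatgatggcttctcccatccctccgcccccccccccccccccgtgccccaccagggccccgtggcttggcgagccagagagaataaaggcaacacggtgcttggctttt
The hexamer began 21 bases before the start in Tyr, 46 bases before it in Tyrp1, and 150 bases before it in Dct, with another on the opposite strand of Dct at 232 bases. Around it the 3 promoters shared the 10 bases GTCATGTGCT, which were noticed after the sequences were read. Of all 32851 promoter windows of this length, searched on both strands, 12.3% held CATGTG and 0.155% (51 windows of 39 genes) held the 10 bases. Promoters of 6 of the 10 genes were in the table, and the windows of Mitf, Kit and Ednrb held no CATGTG. The related hexamer CACGTG was in 0 of the 6 genes and in 6.02% of all windows. ACAAAG, a form of the Sox motif, was in Tyrp1 and Dct, 2 of the 6, and in 16.5% of all windows. TATAAA was in Tyr and in 1 of the 3 Mitf windows, and in 12.4% of all windows.

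Levels are log2 signals relative to the 75th percentile of the same array, so that 0 is the 75th percentile and a step of 1 is 2-fold. Each gene is given by its brighter probe unless stated, and levels of different genes are not comparable because probes bind with different efficiency. A probe that was not well above the local background by the scanner software gives only a bound, which holds for the processing used here. Of all probes, 71.4% were well above background on the Te array, 59.7% on the Tm array and 68.7% on the Tl array, and no spot was saturated. Spots of the same probe repeated on an array differed by an SD of 0.09 to 0.10 at levels above -2 and 0.16 to 0.22 below, which gives a difference between arrays an SD of 0.13 above -2 and 0.24 to 0.28 below. This technical error covers neither mice nor amplification. The sorted cells carried macrophage markers on all arrays, with all 15 measured genes of a list of such markers well above background on each. Their summed linear level was 957 on Te, 836 on Tm and 585 on Tl, in units of the array's 75th percentile, with the greatest part from 1 Itgam probe at 8.95, 8.73 and 7.85.

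**Figure D1:**
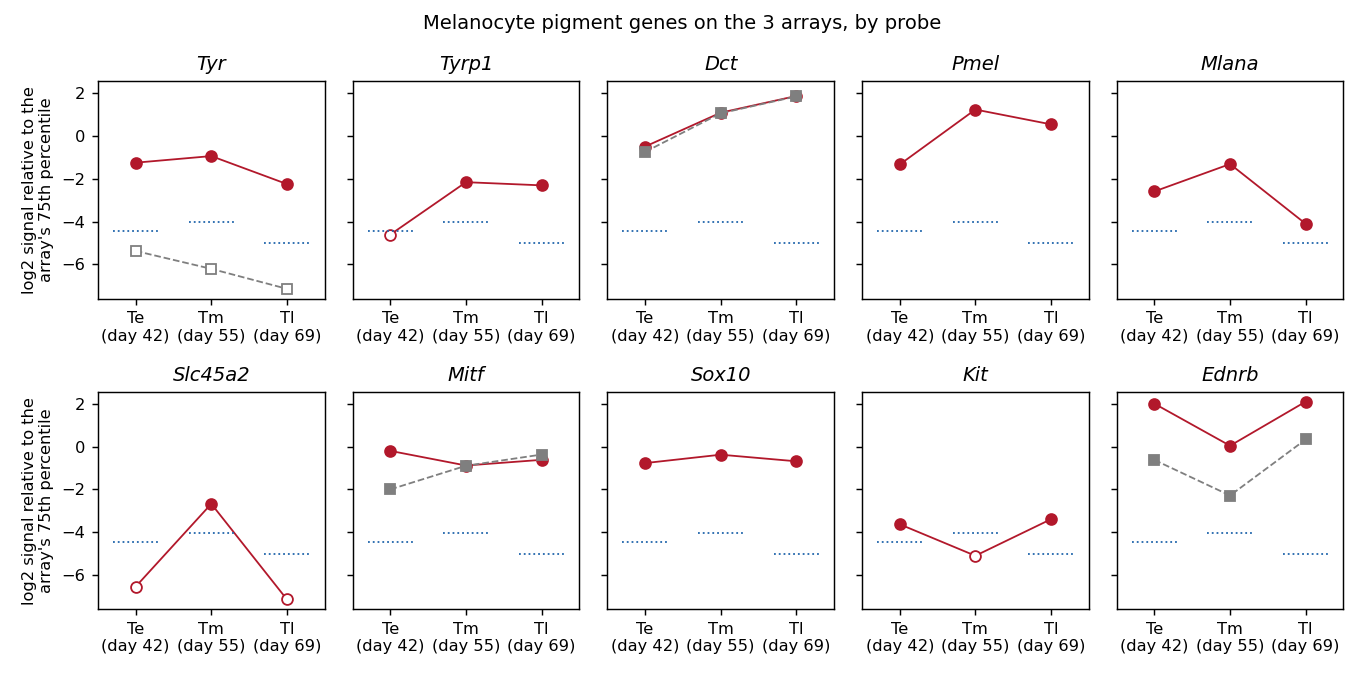
Log2 signal of each of the 14 probes relative to the array's 75th percentile (y axis) on the Te, Tm and Tl arrays (x axis), 1 array per stage. Red circles are the brighter probe of a gene, grey squares its other probe, open symbols were not well above background, and blue dotted lines mark the lowest signal well above background on each array. Dct, Tyrp1 and Pmel lie higher on both later arrays than on Te, and the 2 Mitf probes run in opposite directions.

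Dct, dopachrome tautomerase, which acts downstream of tyrosinase, was at -0.49 on Te, 1.09 on Tm and 1.87 on Tl. It was 3.00-fold higher on Tm and 5.16-fold higher on Tl than on Te, log2 differences of 1.58 and 2.37. A separate Dct probe read -0.74, 1.06 and 1.85, with log2 differences of 1.81 and 2.60. Both probes thus placed Te lowest and Tl highest, and between the probes the differences varied by 0.22 and 0.23. Across all genes with at least 2 measured probes the probes differed in direction for 39.6% of genes in Tl compared to Te, with a median gap of 0.79. Only 2.79% of all genes had a greater increase than Dct on Tl, and 14.5% on Tm.

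Tyrp1, the enzyme that oxidises the carboxylated indole intermediate in the mouse, was not well above background on Te, where it read -4.61. It was well above background at -2.16 on Tm and -2.31 on Tl. Tyrp1 was therefore at least 4.86-fold higher on Tm and at least 4.39-fold higher on Tl than on Te. Tm and Tl differed by a log2 value of 0.15, within the technical error at this level. The bound for Tl was exceeded by 4.08% of all genes and the bound for Tm by 4.75%. Both bounds depend on the processing. With an alternative background correction (normexp) the log2 changes were 0.91 on Tm and 0.63 on Tl, below 2-fold.

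Tyr, tyrosinase, which catalyses the first step of melanin synthesis, did not share this pattern. Its brighter probe was at -1.25 on Te, -0.94 on Tm and -2.25 on Tl. Tl was 2.48-fold below Tm, a log2 difference of -1.31, and just under 2-fold below Te. Tm was above Te by 0.31. The other Tyr probe, with 8 to 10 usable spots on each array, was never well above background. The pair therefore gave no common reading for Tyr, whose values rest on 1 spot per array.

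Pmel, which forms the fibrils on which melanin is laid down, was at -1.33 on Te, 1.24 on Tm and 0.55 on Tl. It was 5.94-fold higher on Tm and 3.67-fold higher on Tl than on Te, and 1.62-fold lower on Tl than on Tm. A greater increase was found for 3.09% of genes on Tm and 6.08% on Tl. Like Dct and Tyrp1, Pmel was lowest on Te.

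Mlana, a melanosome protein that works with Pmel, was at -2.59 on Te, -1.31 on Tm and -4.11 on Tl. It was 2.43-fold higher on Tm but 2.86-fold lower on Tl than on Te. Between the later arrays the difference was 6.94-fold, and 0.377% of all genes were lower than Mlana in Tl compared to Tm. Slc45a2, a transporter that keeps the melanosome interior suited to tyrosinase, was well above background on Tm alone, at -2.67. It was not well above background on Te (-6.55) or on Tl (-7.14). Slc45a2 was at least 3.41-fold higher on Tm than on Te and at least 5.07-fold lower on Tl than on Tm. Of all genes, 6.50% were at least 2-fold higher on Tm than on both other arrays, and Mlana and Slc45a2 were the 2 of 10 pigment genes with that pattern.

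Mitf was represented by 2 probes that gave opposite directions. The brighter probe read -0.20 on Te, -0.88 on Tm and -0.61 on Tl, so that it was lower by 0.68 on Tm and 0.42 on Tl. The other probe read -1.996, -0.89 and -0.37, higher by 1.11 and 1.63 on the same arrays. The gap between the probes was 2.05 in Tl compared to Te, and 9.92% of genes with several measured probes had a gap at least as large. In Tm compared to Te it was 1.79, with 14.2% of genes at or above it. No direction is given for Mitf. Sox10, which acts upstream of Mitf, was at -0.77 on Te, -0.37 on Tm and -0.68 on Tl. Its log2 differences from Te were 0.39 on Tm and 0.08 on Tl, the latter within the technical error.

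The 3 other members of the Mitf family form dimers with Mitf and are expressed in macrophages. Tfeb read 0.00 on Te, 1.60 on Tm and 0.82 on Tl. Tfe3 was at 4.76, 5.14 and 4.48. Tfec was at 0.02 on Te, -3.15 on Tm and -0.05 on Tl, so that it was 9.05-fold lower on Tm than on Te and did not follow the pigment enzymes. Compared to Te, Tfeb and Tfe3 were thus higher and Tfec lower on Tm.

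Kit, the receptor for stem cell factor, was near the detection limit. It was at -3.63 on Te and -3.39 on Tl. On Tm it read -5.10, not well above background. Tl and Te differed by 0.24, within the technical error at this level, and Tm was at least 1.33-fold below Te. Ednrb was at 2.01 on Te, 0.05 on Tm and 2.11 on Tl. It was thus 3.91-fold lower on Tm than on Te and 4.18-fold higher on Tl than on Tm, while Te and Tl differed by 0.10. The other Ednrb probe read -0.62, -2.28 and 0.34 and also placed Tm lowest. It was 0.96 higher on Tl than on Te, so that the probes differed on whether Ednrb was level between Te and Tl. Only 0.896% of all genes were higher than Ednrb in Tl compared to Tm, and 3.59% were lower in Tm compared to Te.

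**Figure D2:**
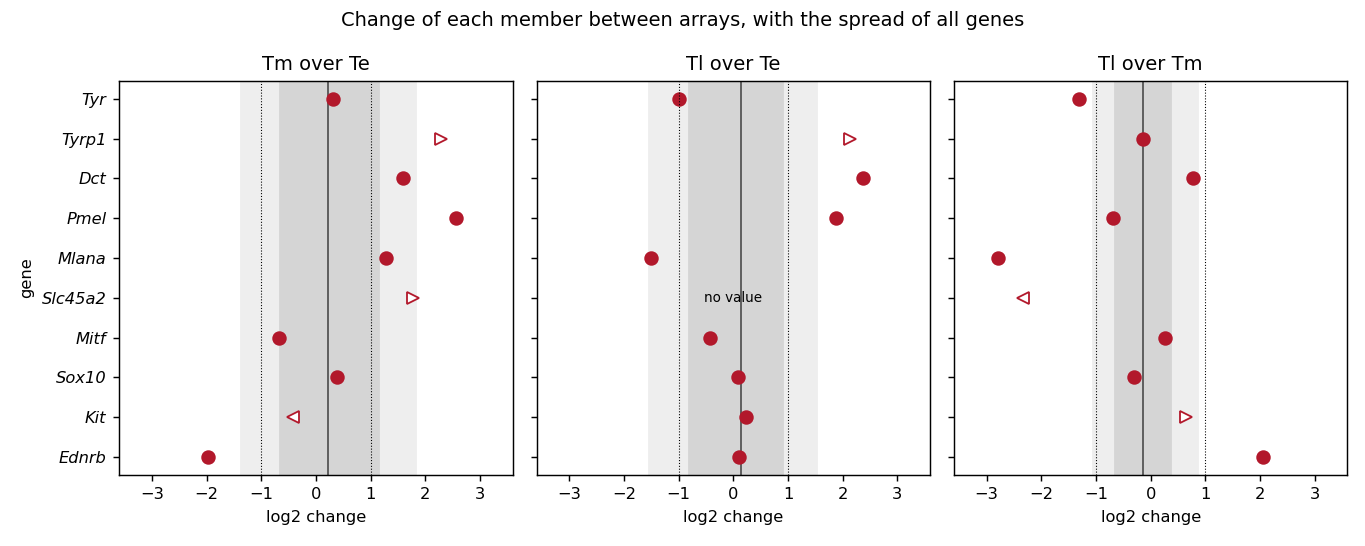
Log2 change of each of the 10 genes (x axis) between Tm and Te, Tl and Te, and Tl and Tm. Filled circles are measured changes, open triangles are bounds pointing away from 0, the black line is the median of all genes, dark grey runs from the 25th to the 75th percentile of all genes and light grey from the 10th to the 90th, and dotted lines mark 2-fold. Tyrp1, Dct and Pmel lie beyond 2-fold higher in both comparisons against Te, and Ednrb, Mlana and Slc45a2 lie outermost between the later arrays.

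In Tl compared to Te, 9 of the 10 genes had a value. Tyrp1, Dct and Pmel were at least 2-fold higher, 3 of 9, where 22.2% of all 16163 genes with a value were. Mlana was at least 2-fold lower, 1 of 9, where 20.7% of all genes were. In Tm compared to Te, Tyrp1, Dct, Pmel, Mlana and Slc45a2 were at least 2-fold higher, 5 of 10, with 29.1% of all 15843 genes. Ednrb was at least 2-fold lower, 1 of 10, with 16.9% of all genes. In Tl compared to Tm, Ednrb alone was at least 2-fold higher, where 7.85% of 14845 genes were, and Tyr, Mlana and Slc45a2 were at least 2-fold lower, where 11.3% were. No pigment gene reached 10-fold, the threshold of the study's methods, which 1.13% of all genes passed in Tl compared to Te, 1.44% in Tm compared to Te and 0.182% in Tl compared to Tm.

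The medians of the 10 genes were 0.10 in Tl compared to Te, 0.84 in Tm compared to Te and -0.23 in Tl compared to Tm. Those of all genes were 0.15, 0.22 and -0.15. With probes well above background on both arrays only, which leaves out the bounds, the medians in Tm compared to Te were 0.39 for the pigment genes and 0.38 for all genes. The comparisons share arrays, since the Te array enters both that are made against it. At least 2-fold higher on both later arrays were Tyrp1, Dct and Pmel, 3 of 9 genes with both values, beside 16.6% of 15608 genes. A difference of any size above Te on both was found for 4 of these 9 (Sox10 being the other) and for 46.1% of all genes. Tyr, Mlana, Kit and Ednrb, 4 of 9, stood on opposite sides of Te on the later arrays, which 17.0% of all genes did. For Kit, and for Ednrb by its brighter probe, the difference between Tl and Te was within the technical error. The other Ednrb probe was 0.96 higher on Tl and 1.66 lower on Tm than on Te. Tyr, by its brighter probe, and Mlana had differences beyond the technical error on both sides of Te. For Tyr this was not kept under other scaling. Its change on Tm was -0.06 with the 75th percentile over probes well above background on all arrays, and its change on Tl was 0.16 without scaling. In these bulk samples, more cells of a type and more RNA per cell cannot be told apart.

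Genes whose 3 log2 levels, centred on their mean, lay nearest to those of each pigment gene were sought among 13080 other genes well above background on all arrays. Nearest to Dct were Dip2c, Tpp1 and Ola1, with 60 genes within a distance of 0.25. Nearest to Pmel were Ncf1, Nedd8 and Hcar2, with 140 genes within that distance. For Mlana they were Insl6, Rhov and Nfe2l3, and 3 genes lay within the distance. Ednrb was nearest to Vsig2, Dclk2 and Chrna10 with 16 genes within it, and Tyr to Slc38a7, Slc25a36 and Cox10 with 128. Mitf, by its brighter probe, had Twist2, Zfp68 and Ddc nearest and 541 genes within it, and Sox10 had Aamp, Phactr1 and Plod1 and 794. Tyrp1, Slc45a2 and Kit were not well above background on all arrays, so they had no nearest genes and could not be found as such. Among the other pigment genes none was among the 3 nearest of another, and with 3 arrays such likeness is easily shared by many genes.

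The melanosome is built by machinery shared with lysosome-related organelles of other cells. Of 31 further genes for melanosome biogenesis, ion transport and movement, all were on the array and 28 had a value in each comparison against Te. Of these 28, 16 were at least 2-fold higher and 3 at least 2-fold lower in Tm compared to Te, with a median of 1.21, beside 29.1% and 16.9% of all genes. In Tl compared to Te, 9 were higher and 2 lower by that measure, with a median of 0.60, beside 22.2% and 20.7% of all genes. At least 2-fold higher on both later arrays were 8 genes, namely Gpnmb, Rab38, Rab32, Ap3b1, Ap3d1, Hps4, Hps5 and Bloc1s6, 8 of 28 beside 16.6% of all genes, with each gene given by its brighter probe. Rab32 and Rab38 are small GTPases that route tyrosinase and Tyrp1 to melanosomes, Ap3b1 and Ap3d1 are adaptor subunits, and Hps4, Hps5 and Bloc1s6 belong to the complexes lost in Hermansky-Pudlak syndrome.

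Rab38 was at -2.18 on Te, -0.40 on Tm and -0.13 on Tl, 3.45-fold and 4.16-fold higher than on Te. The other Rab38 probe was well above background on Tl alone, at least 1.12-fold higher than on Te, so that these sizes rest on 1 probe. Rab32 was at -0.24, 1.76 and 1.76, 3.99-fold and 3.98-fold higher. Hps5 had the greatest increase of the list on Tl, 5.73-fold, from -1.44 on Te to 1.18 on Tm and 1.07 on Tl. Its other probe, well above background throughout, read -0.19, 0.11 and -0.49, 1.23-fold lower on Tl than on Te, so that no direction is given for Hps5 on Tl. Gpnmb, a relative of Pmel that macrophages also express, had the greatest on Tm, 15.3-fold, from -2.89 to 1.04, and was at -0.82 on Tl.

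The list members more restricted to pigment cells gave no common order. Slc24a5, a melanosomal ion exchanger, was at -3.09 on Te, -2.15 on Tm and -1.47 on Tl. Oca2, a melanosomal anion channel, was well above background on Te alone, at -2.95, and was at least 3.99-fold lower on Tl and at least 2.14-fold lower on Tm. Tspan10 was at -3.87, -1.62 and -4.49, highest on Tm like Mlana and Slc45a2. Trpm1, a channel named for melanoma, was at 1.40, 0.23 and 0.50 by its brightest probe. Another Trpm1 probe, well above background throughout, read -2.68, -2.68 and -4.65, a different order. The remaining Trpm1 probe was never well above background. Gpr143, the melanosomal receptor of ocular albinism, was never well above background. Outside this more restricted group, Slc7a11, the cystine transporter, never was either.

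**Figure D3:**
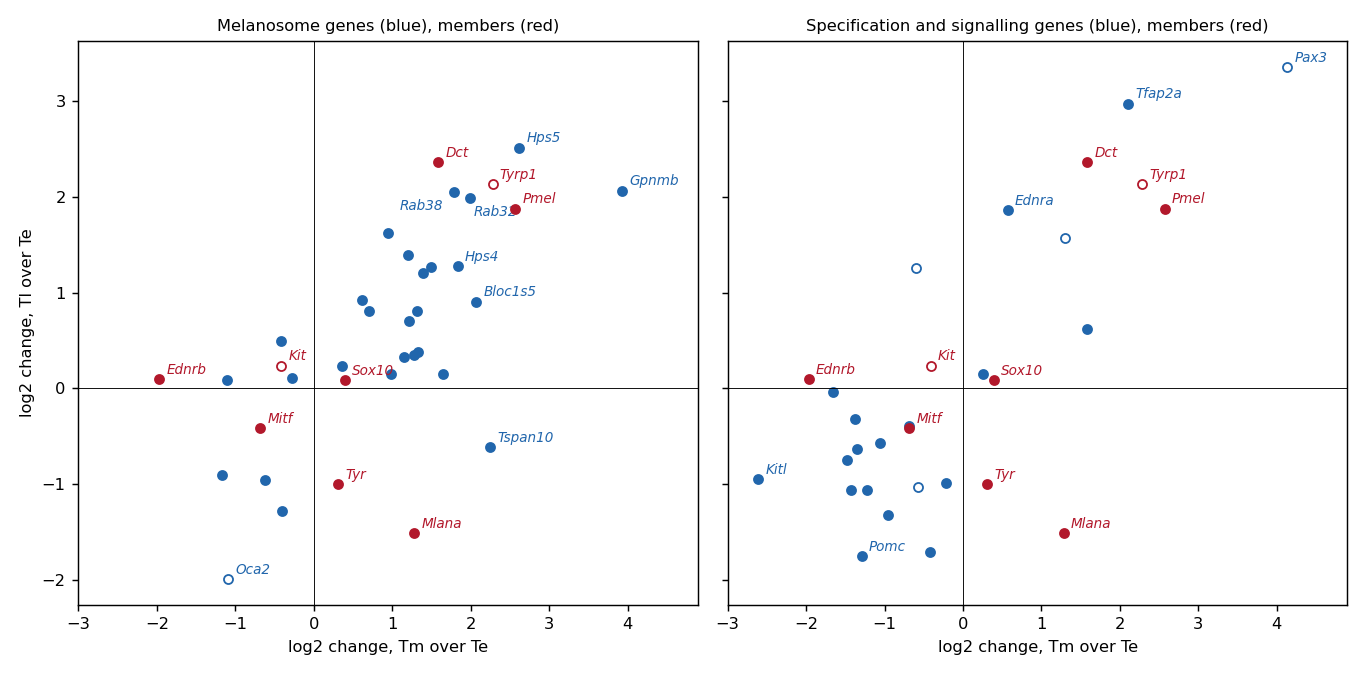
Log2 change in Tm compared to Te (x axis) against that in Tl compared to Te (y axis) for genes with both values, 1 array per stage. Blue points are the further melanosome genes (left) or the specification and signalling genes (right), red points are the 9 pigment genes with both values in each panel, and open points hold a bound in at least 1 comparison. Tyrp1, Dct and Pmel lie at the upper right with Gpnmb, Rab32, Rab38 and Hps5 on the left and with Tfap2a and Pax3 on the right. Both axes share the Te array, so points along the diagonal are partly given by it.

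A further 27 genes for melanocyte specification, signals and survival were listed, of which 26 were on the array and 22 had a value in each comparison against Te. In Tm compared to Te, 5 were at least 2-fold higher and 9 lower, with a median of -0.64, beside 29.1% and 16.9% of all genes. In Tl compared to Te, 5 were higher and 6 lower, with a median of -0.60, beside 22.2% and 20.7%, so that the shares on Tl were near those of all genes. By their brighter probes, Pax3, Sox9 and Tfap2a were at least 2-fold higher on both later arrays, 3 of 21 genes with both values beside 16.6% of all genes. Pomc, Met and Notch1 were at least 2-fold lower on both, 3 of 21 beside 11.3% of all genes. Both shares were near those of all genes. The other Notch1 probe did not reach 2-fold, being 1.54-fold lower on Tm and 1.46-fold lower on Tl.

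Pax3, which acts with Sox10 on the Mitf promoter, had the greatest increase of this list. It was not well above background on Te (-6.49) and was at -0.31 on Tm and -1.08 on Tl, at least 17.5-fold and at least 10.3-fold higher. Its other probe was well above background on Tl alone, at least 1.40-fold higher than on Te. The increase on Tm and the size of that on Tl thus rest on 1 probe. Tfap2a, a factor of neural crest and epidermis, was at -3.56, -1.46 and -0.58, 4.29-fold higher on Tm and 7.87-fold higher on Tl. Sox9, which marks follicle stem cells as well, was at -3.14 on Tm and -2.87 on Tl, with no reading well above background on Te. Foxd3, a factor of the early neural crest, was never well above background.

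The ligands of Kit and Ednrb did not follow Dct. Kitl was at 0.27 on Te, -2.34 on Tm and -0.68 on Tl, 6.10-fold lower on Tm than on Te, the greatest decrease of the list on that array. Edn3 was well above background on Te alone, at -4.15, and Edn1 on Tl alone, at -4.40. Ece1, which activates endothelins, was at 3.51, 2.44 and 2.94. Ednra, the other endothelin receptor, was at -4.09, -3.52 and -2.22, 3.64-fold higher on Tl than on Te.

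Among the melanocortin genes, Mc1r, the receptor that turns melanin synthesis towards eumelanin, was well above background on Tm alone, at -2.02. It was at least 5.36-fold higher on Tm than on Te and at least 7.96-fold lower on Tl than on Tm. Pomc, the precursor of its ligand, was at -1.95, -3.24 and -3.70, 3.37-fold lower on Tl than on Te. Mgrn1 was at 0.68, 2.26 and 1.30. Mc1r, 1 of 21 genes of this list with both values, was thus at least 2-fold higher on Tm than on both other arrays, as were Gpnmb, Hps1, Bloc1s5 and Tspan10, 4 of 27 melanosome genes, beside the 6.50% of all genes given above.

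Markers of other skin cells differed between the same arrays. Of all genes, 29.1% were at least 2-fold higher and 16.9% lower in Tm compared to Te. In Tl compared to Te these shares were 22.2% and 20.7%. Of 15 keratinocyte markers, 12 were at least 2-fold higher in Tm compared to Te and 11 in Tl compared to Te, with medians of 3.29 and 3.09, and none was 2-fold lower. Krt5 was at 1.58 on Te, 5.55 on Tm and 4.91 on Tl, and Krt15, also a bulge marker, at 0.63, 4.54 and 3.98. The summed linear level of the 15 was 279, 408 and 275, most of it from 1 Trp63 probe near 8 on all arrays. The other Trp63 probe was 8.90-fold higher on Tm and 16.4-fold higher on Tl than on Te. Of 10 markers of hair follicle stem cells and germ, 9 had a value on Tm, where 6 were higher and 1 lower by 2-fold. All 10 had a value on Tl, where 5 were higher and 1 lower. Their summed levels were 19.5, 41.9 and 32.8. Cd207, which marks Langerhans cells, was at 3.78, 6.76 and 5.90, and 3 of 7 Langerhans and dendritic cell markers were at least 2-fold higher on each later array, with summed levels of 47.7, 164 and 99.4. None of the 7 was 2-fold lower on Tm, and Ccr7 and Cd209a, 2 of 7, were on Tl, where the median of the list was -0.91. The other Cd209a probe was 1.48-fold lower on Tl. The other Flt3 probe was 2.75-fold lower there, against 1.90-fold by the brighter Flt3 probe. Dct, Tyrp1 and Pmel had their lowest value on Te, as Krt5, Krt15 and Cd207 did. This was common among genes well above background on all arrays. From highest to lowest, 33.8% of these ran Tm, Tl, Te and 17.9% ran Tl, Tm, Te. Of the keratinocyte, Langerhans and dendritic cell markers, Ivl, Trp63 by its brighter probe, Flt3, Xcr1, Ccr7 and Cd209a were not lowest on Te. The part of the keratinocyte, follicle, Langerhans and dendritic cell markers in the result was not tested.

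The receptors and Sox10 were set beside markers of cells that also express them. The shares of all genes at least 2-fold higher and lower were 29.1% and 16.9% on Tm, and 22.2% and 20.7% on Tl. Of 9 mast cell markers on the array, 6 were well above background on Te, 3 on Tm and 7 on Tl, with summed levels of 4.12, 1.96 and 1.63. None was at least 2-fold higher than on Te on either later array, 2 of 6 with a value were lower on Tm and 1 of 6 on Tl. Cpa3 was at -3.48 on Te, not well above background on Tm, and at -3.35 on Tl, the same order as Kit. Other mast cell markers had other orders, with Cma1 at -3.74, -3.04 and -2.85 and Tpsb2 at 1.67, 0.50 and -0.39. Of the defining receptor genes, Fcer1a was well above background on Tl alone, at -4.65, and Ms4a2 and Mrgprb2 never were. Of 10 endothelial markers, all were well above background on each array, with summed levels of 44.05, 30.2 and 39.3, and 5 were at least 2-fold lower in Tm compared to Te. Kdr was at 1.41, 0.15 and 1.56 and Emcn at 1.89, 0.87 and 1.96, both lowest on Tm like Ednrb. Other endothelial markers had other courses. Vwf was highest on Tm, at 1.49, 1.88 and 1.38, and Egfl7 was level at 3.71, 3.71 and 3.73. Tek, at 2.36, 0.92 and 1.26, and Cldn5, at 0.06, -0.76 and -0.61, did not return to the Te level on Tl. Of 11 Schwann cell and glia markers, 9 were well above background on Te, 8 on Tm and 10 on Tl, with summed levels of 48.7, 35.2 and 35.2. Among them, Cdh19 was never well above background. Of 10 fibroblast markers, 9 had a value on Tm, where 1 was higher and 3 were lower by 2-fold. All 10 had a value on Tl, where 3 were higher and 3 lower. The summed levels of the fibroblast markers were 145, 118 and 94.5. The part of all these markers in the values of Kit, Ednrb and Sox10 was not tested.

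**Figure D4:**
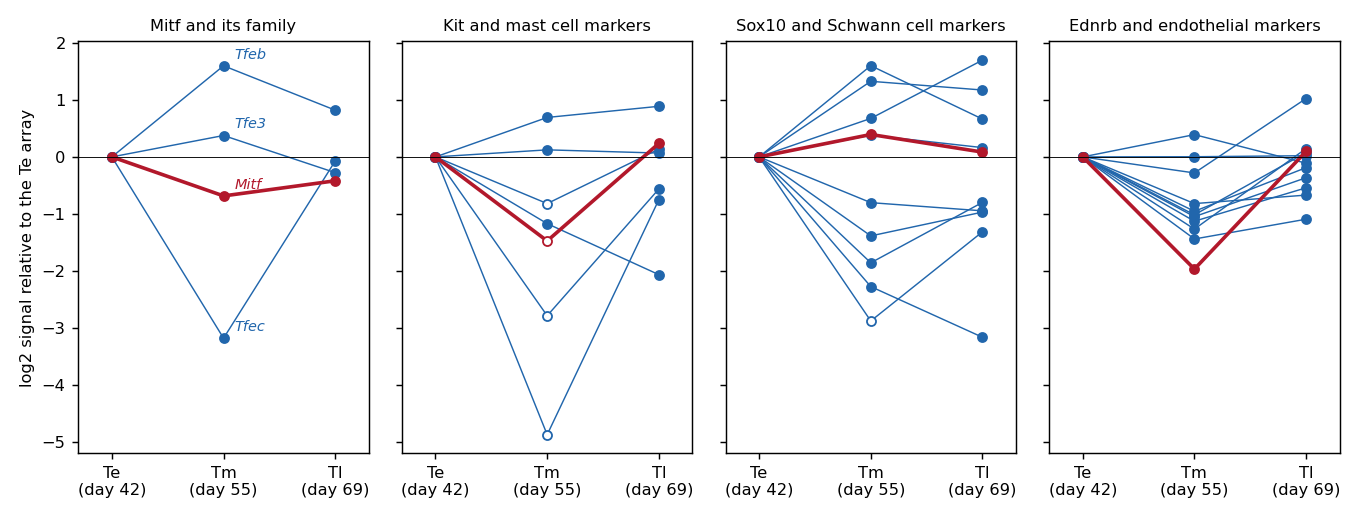
Log2 signal relative to the Te array (y axis) on the Te, Tm and Tl arrays (x axis) for Mitf with its family, Kit with mast cell markers, Sox10 with Schwann cell markers and Ednrb with endothelial markers. Red lines are the pigment genes by their brighter probe, blue lines are markers well above background on Te, and open points were not well above background. Ednrb by this probe lies below every endothelial marker on Tm and near the Te level again on Tl. Its other probe, not shown, was 0.96 higher on Tl than on Te. Kit reads lowest on Tm as Cpa3, Mcpt4 and Gata2 do, none of them well above background there.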

How the data were processed

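Scanner files of 3 arrays (Agilent Mouse G3, 1 colour) were used. The authors scanned the arrays and deposited Feature Extraction 10.7.3.1 output, whose processed signal is a background-corrected intensity. The authors also deposited a table of log2 values for 36409 probes, each probe centred on its median over the arrays. Its Tm column matched the scanner values of the Tl array (99.9% of probes within 0.05) and its Tl column those of the Tm array (99.8%), so it served as an alternative only. Why the columns differ is unknown. The days given are those of the sample records, and the study's text gives another day for Te.

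Control probes and outlier spots (162, 274 and 281 on Te, Tm and Tl) were left out, and the intensities of the spots of a probe were averaged. The log2 of this mean was then set against each array's 75th percentile. A gene was given by its probe with the highest mean. A change was given where the probe was well above background on 1 or both arrays compared. Where that held on 1 only, the change is a bound against the higher of the dim probe's own value and the lowest signal well above background. No change was given where the signal well above background did not exceed that value, and such genes are left out of the counts. With 1 array per stage no test was made and no p-value is given. The text names the 10 genes with all probes, family members, ligands, partners and regulators, the highest and lowest change of a list, and the 3 nearest genes. Krt5, Krt15, Cd207, Cpa3, Cma1, Tpsb2, Ccr7, Cd209a, Kdr, Emcn, Cdh19 and other genes named beside these were chosen after their values were seen. The 10 genes and all lists were chosen with earlier results of these data known. The calculation was tested on simulated data. Python 3.11.15, pandas 2.3.3, numpy 2.4.6 and, for normexp, R 4.3.3 with limma 3.58.1 were used.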

Additional observations from a re-analysis of the deposited data

How the results depend on the processing

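Dct, Tyrp1 and Pmel were higher on both later arrays than on Te under each of the 11 alternatives other than exchanging the later arrays, and also with the exchange, except that Tyrp1 had no value where detection on both arrays was required. The log2 changes on Tl ran from 1.59 to 3.53 for Dct, 0.63 to 3.30 for Tyrp1 and 1.47 to 3.04 for Pmel, and on Tm from 1.21 to 2.37, 0.91 to 3.30 and 1.88 to 3.13. Counts and medians of the 10 genes moved more. Those from the authors' table leave out Mitf and Sox10, since it does not hold the probes used for them here. Leaving out an array was not possible with 1 per stage, and nothing in these data bounds the variation between mice. Signal near background limits Kit, Tyrp1 on Te and Slc45a2.

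For Tl compared to Te, the number at least 2-fold higher (3) was 6 without scaling and 5 in the authors' table and with the arrays exchanged. The number at least 2-fold lower (1) was 0 with median scaling, quantile normalisation or no scaling, and 2 with the percentile over detected probes, in the authors' table or with the median over a gene's probes. At 10-fold (0) it was 1 without scaling and in the table. The median (0.10) was 0.62 with median scaling, 1.26 without scaling, 1.44 in the table, 0.53 over a gene's probes and 0.84 with the exchange.

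For Tm compared to Te, the number higher (5) was 2 with normexp and 3 in the table, with probes detected on both arrays and with the exchange. The number lower (1) was 2 with the percentile over detected probes, the looser detection flag, no filter or the median over probes. At 10-fold (0) it was 1 with the looser flag, no filter or the median over probes. The median (0.84) was 0.46 with the percentile over detected probes, 1.84 with median scaling, 1.53 with quantile normalisation, 0.16 in the table, 0.39 with detection on both arrays and 0.10 with the exchange.

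For Tl compared to Tm, the number higher (1) was 4 without scaling, 3 in the table and with the exchange, and 2 with the looser flag, no filter or the median over probes. The number lower (3) was 1 with the exchange. At 10-fold (0) it was 1 in the table, with the looser flag, with no filter and with the median over probes. The median (-0.23) was 0.67 without scaling, 0.42 in the table and 0.23 with the exchange.

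Among changes of at least 2-fold, signs turned only where the later arrays were exchanged, which the authors' table does by its column names. In the table and with the exchange, Mlana was at 1.29 and 1.28 in Tl compared to Te, at -1.51 and -1.51 in Tm compared to Te, and at 2.80 and 2.80 between the later arrays. Ednrb was at 0.10 and 0.10 in Tm compared to Te and at -2.06 and -2.06 between the later arrays. Tyr was at 1.31 and 1.31 and Slc45a2 at 4.47 and 2.34 between the later arrays, and Slc45a2 in Tm compared to Te was at -0.59 in the table. Scaling moved the median of all genes as well, in Tl compared to Te from 0.15 to -0.05, 0.65, 0.30 and 1.32 (percentile over detected probes, median, quantile, none) and in Tm compared to Te from 0.22 to -0.16, 0.86, 0.32 and 0.52. Relative to these, the median of the pigment genes lay between -0.09 and -0.03 on Tl and between 0.58 and 1.22 on Tm. With detection on both arrays it lay 0.01 above that of all genes on Tm, so that the excess on Tm was not kept there. By the values the authors tabulated it lay 0.13 above in the column named Tm and 1.21 above in that named Tl. The column named Tl matched the scanner values of the Tm array, so that for the genes tabulated the excess on that array was kept. Between the later arrays the median of all genes went from -0.15 to 0.02, -0.19, -0.00 and 0.72. Apart from the turned signs named above, the cause of these differences was not tested.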
